A study of Mus musculus with 6 samples.

Results

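The genes described here are 8 potassium and sodium channel genes known from oligodendrocyte precursor cells (OPCs): Kcnj10, Kcnj16, Kcnd2, Kcnip3, Kcnk1, Scn1a, Scn3a and Scn8a. They were chosen by name and not by a measured value, though with earlier results of these data known. All 8 were found by symbol in the annotation, out of 30919 genes quantified, and all 8 entered the test of 12038 genes that reached a mean of 1 FPKM. RNA-seq was made from spinal cord OPCs of C57BL/6 mice at postnatal day 0.5. The libraries came from 3 samples lacking GDE3 (Gde3 KO) and 3 wild-type (WT) samples. GDE3, the product of Gdpd2, is a membrane enzyme that releases proteins held at the cell surface by a lipid anchor. All 6 samples were selected with magnetic beads for A2B5, a surface epitope of glial precursors, and all spent 16 h in a proliferative medium that held PDGF and CNTF at 10 ng/mL each, along with forskolin at 5 µM, so each value describes cells under these factors. The labels give neither the number of animals in a sample nor the driver of the deletion, and nothing says which samples came from separate animals, so p-values measure the spread between these samples.

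OPCs are glial cells that divide and give rise to myelinating oligodendrocytes, and they differ from most glia in carrying voltage-gated channels of the kinds found in neurons. Inward rectifier potassium channels set the resting potential and take up potassium. A-type potassium channels open briefly after depolarization and shape spikes and synaptic responses, and voltage-gated sodium channels carry the fast inward current that OPCs show and that declines as the cells mature into oligodendrocytes. The pore of a sodium channel is 1 long protein whose messenger RNA is spliced in alternative ways during development.

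The alternative exons of the sodium channel genes and of Kcnip3 are described first because the assembled transcripts differed in them from library to library. Scn8a (chr15:100869858-101045938 in mm10, plus strand) and Scn3a (chr2:65457118-65567627, minus strand) each hold a pair of mutually exclusive copies of an exon in the first voltage-sensor domain, by convention 5N (neonatal) and 5A (adult). Each copy has 92 bases.

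Scn8a has a second alternative pair, exons 18N and 18A. Exon 18A (123 bases) keeps the reading frame of the full channel, whereas in 18N (68 bases) the frame meets a stop codon at base 28 of the exon. Both exons follow 1271 whole codons, and the full coding transcript has 1977. The start of 18N through its stop codon, in capitals, and the whole of 18A, which holds no stop in this frame, read as follows, from the GENCODE M21 transcripts, 5′ to 3′ on the gene's strand.
Scn8a exon 18N, chr15:101023839-101023868: gttccattaagtttgtctggcttaattTAA
Scn8a exon 18A, chr15:101024261-101024383: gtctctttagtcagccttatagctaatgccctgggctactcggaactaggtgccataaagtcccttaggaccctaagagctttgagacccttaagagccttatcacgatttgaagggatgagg
Kcnip3 (chr2:127456498-127522094, minus strand) has acceptors 4 bases apart at its exon 3. The junction is shown with the last 20 bases of exon 2 on the left. The 4 bases present only in the longer exon are in capitals.
Kcnip3, longer exon: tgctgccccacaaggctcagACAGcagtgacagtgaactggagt
Kcnip3, shorter exon: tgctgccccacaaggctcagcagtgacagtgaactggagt

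Expression was read from the transcripts that the authors assembled in each library, as FPKM, which scales the fragments of a transcript to its length and to the library. A gene's level is the FPKM summed at each of its exonic bases that no other gene shares, averaged over those bases, so a part of a gene that was not assembled lowers its level. Assemblies held 32098 to 41319 transcripts in KO samples and 32693 to 56807 in WT samples, and depth relative to the deepest library was 0.882 to 0.988 in KO and 0.759 to 1 in WT. WT replicate 1 stood apart in that its transcripts were short: their median was 438 nt, whereas medians elsewhere ran from 1173 to 1830 nt, and 36.8% of them were under the 300 nt minimum, against 2.16% to 6.61% elsewhere. Gdpd2 checked the genotype labels. Its exons 9 and 10 were 0% assembled in all 3 KO libraries, whereas exon 9 was 100% assembled in all 3 WT libraries and exon 10 was 100% assembled in WT replicates 2 and 3 and 21.85% in WT replicate 1. In WT replicate 1 the rest of Gdpd2 was 0% assembled apart from 19.46% of exon 8, so the check of that library rests on a short part of the gene. In KO replicate 1 exons 7 and 8 and exons 13 to 16 were also 0% assembled, so the gap there was not particular to exons 9 and 10. Olig1 and Olig2, transcription factors that define the oligodendrocyte lineage, were at 415.4 to 517.7 and 104.3 to 258.4 FPKM in KO and at 355.8 to 513.1 and 83.34 to 278.7 FPKM in WT, and 10 OPC markers summed to 1185 to 1480 FPKM in KO and 1058 to 1603 FPKM in WT. Sums were 259.4 to 770.7 FPKM in KO and 198.2 to 602.6 in WT for 9 astrocyte markers, 150.8 to 213 in KO and 211.8 to 328.5 in WT for 10 neuron markers, and 101 to 187.9 in KO and 56.66 to 78.58 in WT for 10 microglia markers. All 8 tested microglia markers were higher in KO and none was past the threshold. For 5 of them all KO values lay above all WT values, against 2.04% of all genes tested. P2ry12 (microglia) was listed at 0 in KO replicate 2 and in all 3 WT libraries, and Tek (endothelium) in KO replicate 3 and in all 3 WT libraries. Both were named after their values were seen. The 6 tested endothelial and mural markers went both ways, 4 higher and 2 lower in KO, none past the threshold. Sums were 229.4 to 362.4 FPKM in KO and 298.8 to 306.3 in WT for 9 committed oligodendrocyte markers and 15.11 to 27.17 in KO and 13.86 to 24.12 in WT for 9 endothelial and mural markers. In such bulk samples fewer cells of a type and less RNA per cell cannot be told apart.

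No channel gene of the 8 passed the test between genotypes. With limma on log2(FPKM + 1) and Benjamini-Hochberg adjustment over 12038 genes, 0 of 8 were called in either direction (adjusted p = 0.9999 for each), and 1 gene of all those tested was called (0.00831%). The direction was lower in KO for 6 genes and higher for 2, with a median difference of -0.0861 log2 units against -0.00544 over all genes tested. Leaving out 1 library turned the direction of Kcnj10, Kcnj16, Scn1a, Scn3a or Scn8a, and without WT replicate 1 all 8 were lower in KO (median -0.199), whereas Kcnd2, Kcnip3 and Kcnk1 stayed lower in KO with any 1 library left out. Unadjusted, Kcnd2 had a limma p of 0.0331 and each of the other 7 was at 0.137 or above. All KO values lay below all WT values for 2 of the 8, Kcnd2 and Kcnip3, an arrangement found in 3.03% of all genes tested, and all KO values lay above all WT values for 0 of the 8, against 2.04% of all genes.

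**Figure D1:**
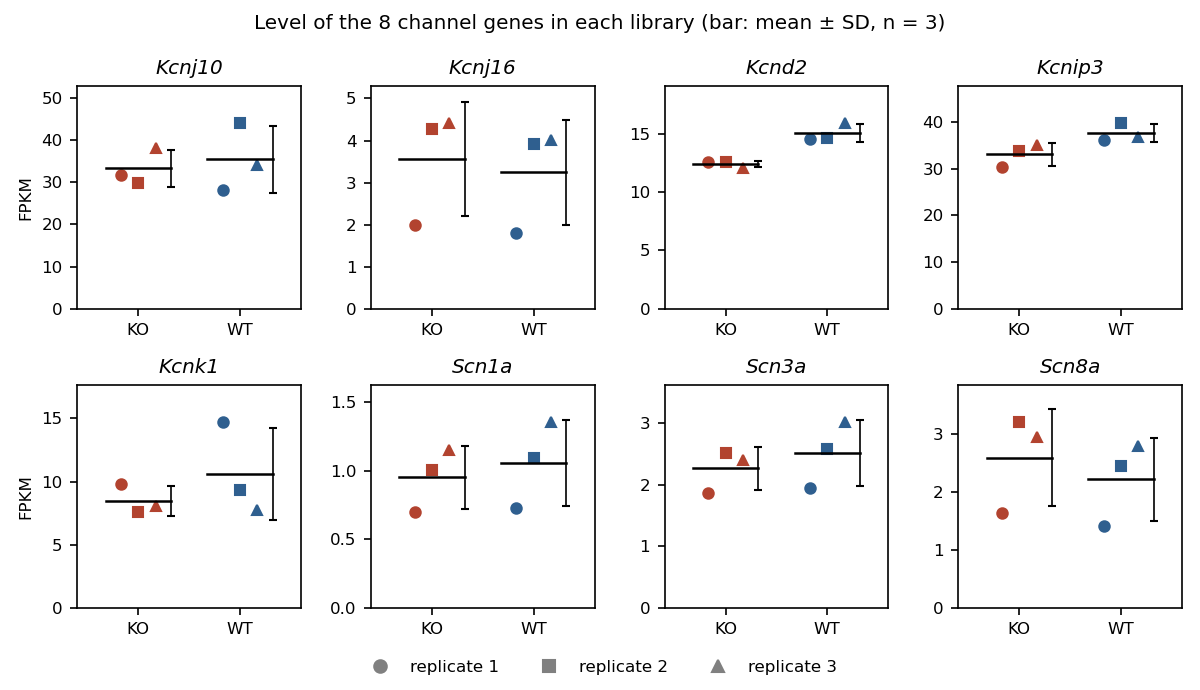
Level in FPKM of each of the 8 channel genes, with KO libraries on the left and WT libraries on the right of each panel; symbols give the replicate number, horizontal bars the mean and whiskers the SD (n = 3). KO and WT points separate for Kcnd2 and Kcnip3, and in Kcnj16, Scn1a, Scn3a and Scn8a the circles of replicate 1 lie below the other points, which over assembled bases only held for Kcnj16 alone.

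The inward rectifier genes encode partners of 1 channel. Kcnj10 encodes Kir4.1, the main potassium uptake channel of glia, and Kcnj16 encodes Kir5.1, which forms mixed channels with Kir4.1. Kcnj10 (chr1:172341210-172374085) was at 31.76, 29.89 and 38.19 FPKM in KO replicates 1 to 3, against 28.25, 44.03 and 34.05 FPKM in WT replicates 1 to 3. The genotypes overlapped: WT replicate 2 was the highest library and WT replicate 1 the lowest. Kcnj10 averaged 33.28 ± 4.35 FPKM in KO and 35.44 ± 7.98 in WT (SD over 3 libraries each), a log2 difference of -0.07 ± 0.189 (SE; 95% interval -0.535 to 0.389), and its mean level was above that of 84.1% of tested genes.

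Kcnj16 (chr11:110968033-111027968) was far lower than its partner in every library. It was at 1.993, 4.276 and 4.414 FPKM in KO, against 1.807, 3.928 and 4.011 FPKM in WT. Both replicate 1 libraries were low, also over assembled bases only, at 2.128 FPKM in KO replicate 1 and 2.919 FPKM in WT replicate 1 against 4.211 to 4.65 FPKM elsewhere. In each same-numbered pair KO was slightly higher, by 0.09 to 0.11 log2 units. The difference over all libraries was 0.10 ± 0.336 log2 units (SE; 95% interval -0.719 to 0.92), within the spread of the replicates, and it was -0.17 without WT replicate 1 and -0.05 over assembled bases only. Astrocytes also use both genes. Of 9 astrocyte markers, 6 had both replicate 1 values below the other 4 libraries, against 21.3% of all genes tested. Aqp4, the astrocyte water channel, was at 8.954, 27.39 and 68.47 FPKM in KO and 6.016, 46.15 and 59.54 FPKM in WT. It was low in replicate 1 as Kcnj16 was, but it varied among replicates 2 and 3, where Kcnj16 stayed at 3.928 to 4.414 FPKM. The part of such cells in these levels was not tested.

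Kcnj10 was assembled whole or nearly so in every library, and Kcnj16 was broken into pieces in both replicate 1 libraries. Kcnj10 was 1 transcript with 2 exons in every library, covering 99.32% to 100% of the annotated exonic bases, and its assembled start lay 55 to 413 nt upstream of the annotated one. Kcnj16 lay in 3 pieces in KO replicate 1, 1 of them with an unannotated first junction (0.7259 FPKM), and in 5 pieces of at most 736 nt in WT replicate 1. Its exonic bases, which are those of all its annotated forms, were 61.92% assembled in WT replicate 1 and 92.99% to 94.94% in the other libraries. Its coding bases were 72.32% assembled in WT replicate 1 and 100% in each of the other libraries. All 6 libraries held the first junction of Kcnj16 from the annotated start at position 110997487. No library held a junction from the starts at 110968033 or 110968064, and KO replicate 3 alone also held the junction from the start at 111023860, at 2.015 FPKM.

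Kcnd2 and Kcnip3 were the 2 of the 8 whose genotypes did not overlap, with KO below WT as in 3.03% of all genes tested. Kcnd2 encodes Kv4.2, the pore of an A-type potassium channel, and Kcnip3 encodes KChIP3, a calcium-binding subunit of Kv4 channels that is also known as the transcriptional repressor DREAM and as calsenilin. Other genes of Kv4 channels, Kcnd3, Kcnip1 and Dpp6, overlapped between genotypes. Kcnd2 (chr6:21215503-21729805) was at 12.6, 12.59 and 12.1 FPKM in KO, against 14.6, 14.62 and 15.93 FPKM in WT. The highest KO library was below the lowest WT library. Kcnd2 averaged 12.43 ± 0.284 FPKM in KO and 15.05 ± 0.762 in WT (SD over 3 libraries each), a log2 difference of -0.26 ± 0.0934 (SE; 95% interval -0.484 to -0.0284) with a limma adjusted p of 0.9999. Over all 12038 genes, 195 had an unadjusted limma p under 0.05.

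Kcnip3 was at 30.31, 33.76 and 35.08 FPKM in KO, against 36.2, 39.74 and 36.7 FPKM in WT. The highest KO library, replicate 3, and the lowest WT library, replicate 1, lay close together. The means were 33.05 ± 2.46 FPKM in KO and 37.55 ± 1.91 in WT (SD over 3 libraries each), and the log2 difference was -0.18 ± 0.105 (SE; 95% interval -0.437 to 0.0762). Without both replicate 1 libraries the log2 differences were -0.285 for Kcnd2 and -0.1462 for Kcnip3. Neurons also use both genes, and neuron markers were lower in KO for 9 of 10 genes, none past the threshold. The count was 6 of 10 without WT replicate 1 and 8 of 9 without both replicate 1 libraries. The part of neurons in these levels was not tested.

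**Figure D2:**
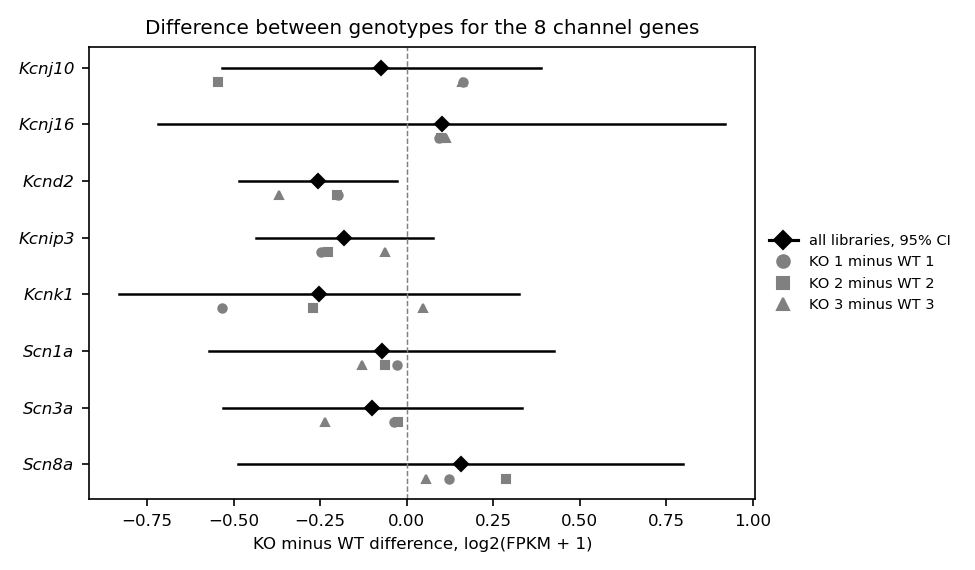
KO minus WT difference in log2(FPKM + 1) for the 8 genes: diamonds with lines give the limma estimate and its 95% interval, grey symbols the differences of same-numbered libraries. The interval lies below 0 only for Kcnd2 (-0.484 to -0.0284, before adjustment over genes), and the 3 grey symbols lie below 0 for Kcnd2, Kcnip3, Scn1a and Scn3a and above 0 for Kcnj16 and Scn8a.

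Kcnd2 was assembled in separate parts in every library. Its first intron has 496721 nt, and the annotated junction across it was in none of the 6 assemblies, whereas the other 4 annotated junctions were in all 6. Exon 1 was at 12.04, 11.89 and 11.01 FPKM in KO and 12.52, 13.61 and 13.02 FPKM in WT. Exons 2 to 6 were at 12.93, 13 and 12.75 FPKM in KO and 15.83, 15.21 and 17.64 FPKM in WT. Both parts had KO below WT without overlap, by a smaller margin in exon 1.

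Kcnip3 transcripts used both acceptors of exon 3 shown above. Transcripts with the longer exon were at 36.26, 24.13 and 30.82 FPKM in KO and 39.74, 33.56 and 32.71 FPKM in WT. Those with the shorter exon were at 0, 15.8 and 11.18 FPKM in KO and 0, 13.52 and 10.7 FPKM in WT. The longer form made up 100%, 60.44% and 73.38% of the 2 forms in KO and 100%, 71.29% and 75.36% in WT, so the shorter form was assembled in replicates 2 and 3 of both genotypes and in neither replicate 1 library. The forms share the last coding base and differ at the start: the annotated form with the shorter exon has 852 coding bases and a start codon at base 31 of the transcript, and that with the longer exon has 768 coding bases and a start codon at base 119, both in exon 1.

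Kcnk1 encodes TWIK-1, a tandem pore domain (K2P) channel that carries background potassium current. Kcnk1 (chr8:125995170-126030685) was at 9.835, 7.584 and 8.032 FPKM in KO, against 14.69, 9.355 and 7.746 FPKM in WT. WT replicate 1 was far above the other libraries, and without it the log2 difference was -0.01222. WT replicates 2 and 3 lay within the KO range. The means were 8.484 ± 1.19 FPKM in KO and 10.6 ± 3.64 in WT (SD over 3 libraries each), a log2 difference of -0.25 ± 0.237 (SE; 95% interval -0.83 to 0.324). Of 10 neuron markers 7 were also highest in WT replicate 1 and 1 was lowest there, and the part of neurons in the Kcnk1 level was not tested. A transcript with the annotated 3 exons of Kcnk1 was in every library. KO replicate 3 alone also held a form, at 1.401 FPKM, in which an annotated intron of 658 nt was removed from within the last exon. An antisense gene overlaps part of Kcnk1, so 91.99% of its exonic bases entered its level.

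The sodium channel genes encode pore subunits. Scn1a encodes Nav1.1, Scn3a encodes Nav1.3, which is most used before and around birth, and Scn8a encodes Nav1.6, the main channel of mature nodes of Ranvier. Scn8a was at 1.633, 3.195 and 2.937 FPKM in KO, against 1.418, 2.437 and 2.788 FPKM in WT. KO was higher in each same-numbered pair, by 0.0557 to 0.287 log2 units, but the genotypes overlapped and the difference over all libraries was 0.16 ± 0.263 log2 units (SE; 95% interval -0.487 to 0.797). Without WT replicate 1 it was -0.04, and averaged over assembled bases only it was -0.12.

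Scn3a was at 1.874, 2.518 and 2.41 FPKM in KO, against 1.946, 2.579 and 3.017 FPKM in WT. WT replicate 3 was the highest library, KO replicate 1 the lowest, and the log2 difference was -0.10 ± 0.177 (SE; 95% interval -0.531 to 0.333). Scn1a (chr2:66270778-66440840, minus strand) was at 0.6999, 1.004 and 1.155 FPKM in KO, against 0.7318, 1.094 and 1.354 FPKM in WT. Its mean of 1.007 FPKM was just above the minimum for testing, and its log2 difference was -0.07 ± 0.204 (SE; 95% interval -0.57 to 0.424). Of the other pore genes of the family, Scn2a (Nav1.2) was close behind at 0.8137, 1.01 and 1.06 FPKM in KO and 0.4506, 1.168 and 1.205 FPKM in WT, under the testing minimum. Scn10a and Scn11a, pore genes of sensory neurons, were highest in WT replicate 1, at 3.314 and 0.9906 FPKM. Scn10a was also at 0.5218 FPKM in KO replicate 1, and both were listed at 0 in the remaining libraries.

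These long, low genes were assembled unevenly. Scn8a had 88.18%, 94.34% and 91.57% of its exonic bases assembled in KO and 36.77%, 95.56% and 94.64% in WT. Scn3a had 81.26%, 83.6% and 88.18% in KO and 39.53%, 90.11% and 90.56% in WT. Scn1a had 73.54%, 63.82% and 85.3% in KO and 22.07%, 90.27% and 89.87% in WT. WT replicate 1 was the lowest library for each of them, so its levels of these genes are averages over mostly unassembled bases, and an exon missing from an assembly was not detectable there and is not shown to be absent from the cells.

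**Figure D3:**
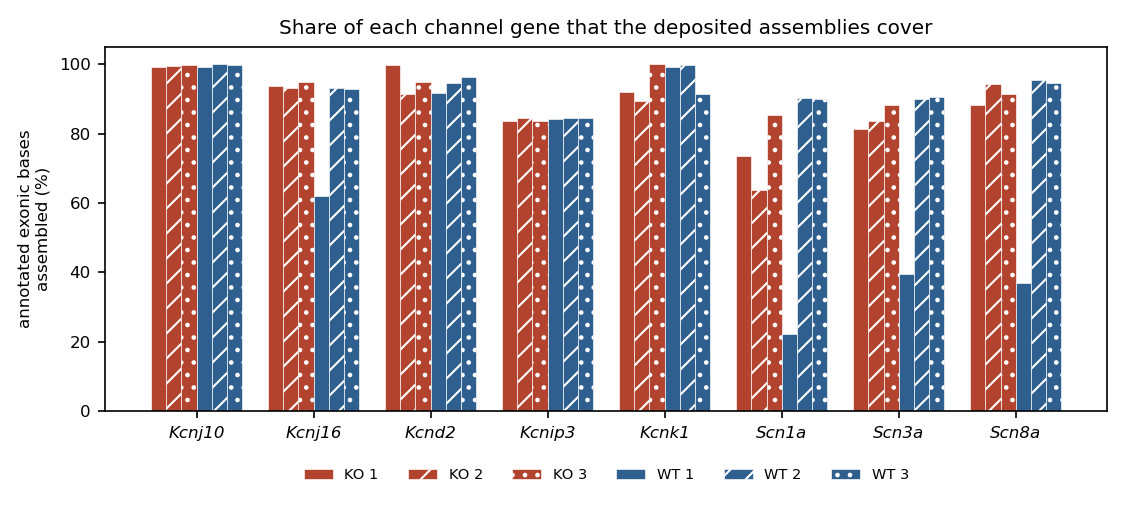
Percent of annotated exonic bases of each channel gene covered by assembled transcripts of 300 nt or more, with KO bars (red) left of WT bars (blue) and hatching by replicate. Kcnj10, Kcnd2, Kcnip3 and Kcnk1 were covered to 83.55% or more in all 6 libraries, whereas WT replicate 1 was at 61.92% for Kcnj16, 22.07% for Scn1a, 39.53% for Scn3a and 36.77% for Scn8a.

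At exon 5, both the neonatal and the adult copy were in the assemblies of both genes. In Scn8a, transcripts with the junction into 5N were at 2.518, 0 and 2.281 FPKM in KO and 0, 3.632 and 0 FPKM in WT, and those with the junction into 5A were at 0.9813, 3.794 and 1.402 FPKM in KO and 0.6056 and 2.588 FPKM in WT replicates 2 and 3. The adult copy was thus in 5 libraries and the neonatal copy in 3, with neither assembled in WT replicate 1. In Scn3a, the junction into 5N was at 1.678, 0 and 1.92 FPKM in KO and 0, 0.8324 and 3.349 FPKM in WT, and the junction into 5A was at 1.521 FPKM in KO replicate 2 and 0.7983 FPKM in WT replicate 2. The junction out of 5A of Scn3a was in these libraries and also in KO replicate 1 (0.5489 FPKM) and KO replicate 3 (0.5461 FPKM). WT replicate 2 also held an unannotated Scn3a junction that skipped both copies, at 1.186 FPKM. Neither gene had a copy that was in all libraries of 1 genotype and in none of the other.

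At exon 18 of Scn8a the only junctions assembled into the pair led to 18N. This junction, to the copy with the stop codon, was in 5 of the 6 assemblies, at 0.8404, 2.628 and 2.281 FPKM in KO and 2.445 and 3.064 FPKM in WT replicates 2 and 3. KO replicates 2 and 3 and WT replicate 3 also held the junction out of 18N, to the exon after the pair. The junction into 18A was in 0 of 6. Pieces that began inside 18A and ran on to the next exon were in KO replicate 2 (1.114 FPKM), KO replicate 3 (0.7256 FPKM) and WT replicate 2 (2.326 FPKM), covering 6.504%, 42.28% and 5.691% of its bases. Both genotypes therefore showed the 18N junction in most libraries, and the number of libraries with it was the same when only transcripts of 300 nt or more were counted.

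**Figure D4:**
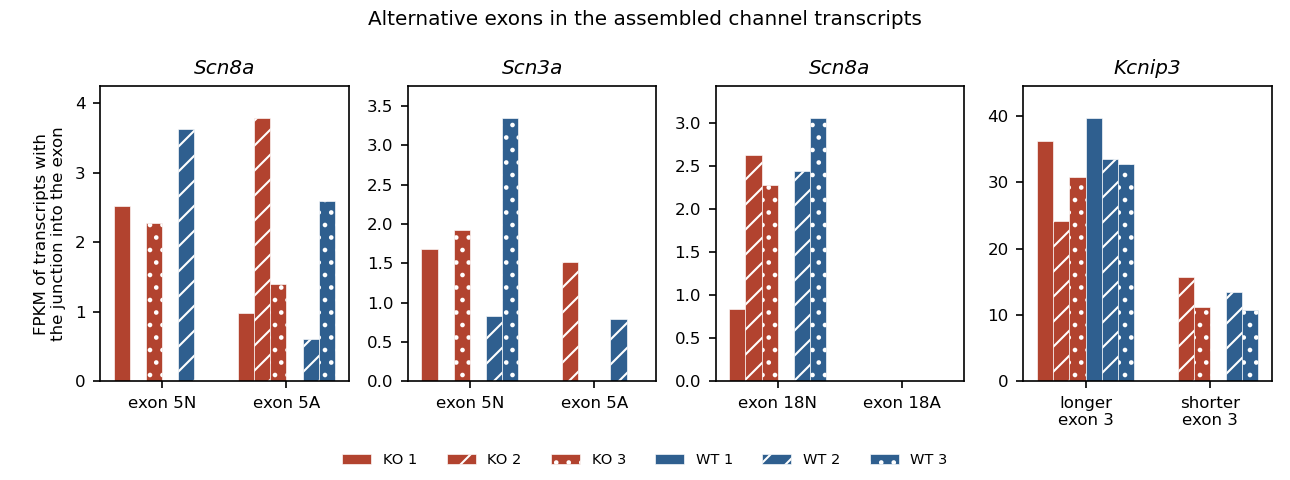
FPKM of the assembled transcripts that hold the junction into each alternative exon of Scn8a, Scn3a and Kcnip3, with KO bars (red) left of WT bars (blue) and hatching by replicate; a missing bar means that the junction was not assembled. Scn8a exon 18N had bars in 5 libraries and 18A in 0, and the longer Kcnip3 exon was above the shorter one in all 6 libraries.

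Other choices in the sodium channel genes also varied between libraries. At the Scn3a exon before the intron at chr2:65507280-65508461 the assemblies used the annotated donor in 5 libraries and also 4 unannotated ones. These lengthened the exon by 147 nt in 1 library, by 96 nt in 3, by 13 nt in 2 and by 9 nt in 2. The 13 nt extension, in WT replicates 2 and 3, is the only one of these that is not a multiple of the codon length. Scn1a has 3 annotated donors at 1 exon: the longest, 84 nt beyond the shortest, was only in WT replicate 3 (0.9974 FPKM), the middle one, 51 nt beyond it, was at 0.4035 FPKM in KO replicate 1, 1.366 in KO replicate 3, 1.245 in WT replicate 2 and 0.7215 in WT replicate 3, and the shortest was in none. The start of Scn1a at position 66410064 had its first junction in all 6 libraries, and the start at 66440837 in none.

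Over the 6 libraries the order of mean levels was Kcnip3 (35.3 FPKM), Kcnj10 (34.36), Kcnd2 (13.74), Kcnk1 (9.541), Kcnj16 (3.405), Scn8a (2.401), Scn3a (2.391) and Scn1a (1.007). FPKM is per length, but the assembled share of the exonic bases differed between genes, from 99.32% to 100% for Kcnj10 and 83.55% to 84.6% for Kcnip3 to 22.07% to 90.27% for Scn1a, so this order mixes level and coverage. Exonic bases are those of all annotated forms of a gene. Coding bases of the longest coding form were 99.18% to 100% assembled for Kcnip3 and 26.18% to 99.92% for Scn1a. Averaged over assembled bases only, a setting added after seeing the data, the means were 41.93 FPKM for Kcnip3, 34.47 for Kcnj10, 14.51 for Kcnd2, 9.971 for Kcnk1, 3.802 for Kcnj16, 3.195 for Scn3a, 2.966 for Scn8a and 1.652 for Scn1a, with Scn3a then ahead of Scn8a. The ranges that follow are over all exonic bases. Kcnip3 (30.31 to 39.74 FPKM) and Kcnj10 (28.25 to 44.03) overlapped, and Kcnj10 was above Kcnd2 (12.1 to 15.93) in every library. Kcnd2 overlapped with Kcnk1 (7.584 to 14.69) through WT replicate 1, and Kcnk1 lay above Kcnj16 (1.807 to 4.414) without overlap. Kcnj16, Scn8a (1.418 to 3.195) and Scn3a (1.874 to 3.017) overlapped, and Scn1a (0.6999 to 1.354) was below all of them.

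Another contrast ran along the replicate numbers, which the sample titles give. The identifiers in the sample descriptions share a middle number of 3 for both replicate 1 libraries and of 4 for the other 4, and what it stands for is not stated. Both replicate 1 values were below all 4 others for 4 of the 8 genes, against 21.3% of all genes tested, and above them for 1 of the 8, against 18.7% of all genes. Over assembled bases only, a setting added after seeing the data, the counts were 1 below (Kcnj16), against 14.0% of all genes, and 1 above (Kcnk1), against 19.4%. The low values of Scn1a, Scn3a and Scn8a in WT replicate 1 thus depended on the scale. Over assembled bases only, these genes were at 0.9517, 2.306 and 1.852 FPKM in KO replicate 1, the lowest library. In WT replicate 1, the highest on this scale, they were at 3.315, 4.923 and 3.856 FPKM. An average over assembled bases leaves out what was too low to assemble, so neither scale gives the level of a partly assembled gene exactly. The values that follow are over all exonic bases. Kcnj16 was at 1.807 to 1.993 FPKM in replicate 1 and 3.928 to 4.414 in replicates 2 and 3. Scn8a was at 1.418 to 1.633 FPKM in replicate 1 and 2.437 to 3.195 in replicates 2 and 3. Scn3a was at 1.874 to 1.946 FPKM in replicate 1 and 2.41 to 3.017 in replicates 2 and 3, and Scn1a at 0.6999 to 0.7318 in replicate 1 and 1.004 to 1.354 in replicates 2 and 3. Kcnk1 ran the other way, at 9.835 to 14.69 FPKM in replicate 1 and 7.584 to 9.355 in replicates 2 and 3, and Kcnj10, Kcnd2 and Kcnip3 overlapped. Without both replicate 1 libraries the KO minus WT differences of the 5 genes that split were 0.105 log2 units for Kcnj16, 0.1716 for Scn8a, -0.1307 for Scn3a, -0.09559 for Scn1a and -0.112 for Kcnk1, none past the threshold.

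Over all exonic bases the same split was in the astrocyte markers, whose sum was 198.2 to 259.4 FPKM in replicate 1 and 477.7 to 770.7 FPKM in replicates 2 and 3. Of these markers, 6 of 9 were below in both replicate 1 libraries, against 21.3% of all genes tested. Neuron markers summed to 213 to 328.5 FPKM in replicate 1 and 150.8 to 212.1 FPKM in replicates 2 and 3. The part of these cells in the channel levels was not tested. Over the 6 libraries, Kcnj16 and Scn8a had the most alike patterns among the 8 (Pearson r = 0.976 of log2 levels), followed by Scn1a and Scn3a (r = 0.963), and Kcnk1 was opposed to Scn8a (r = -0.902). Kcnd2 and Kcnip3 had r = 0.648. These are descriptions over 6 libraries that share the replicate split and the uneven assembly.

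Among the 12037 other tested genes, the nearest pattern over the 6 libraries was that of Zfp93 for Kcnj10 (r = 0.9836), Stxbp5 for Kcnj16 (r = 0.9993), Sec63 for Kcnd2 (r = 0.9794) and Ralyl for Kcnip3 (r = 0.9957). It was 0610040J01Rik for Kcnk1 (r = 0.9964), Trip13 for Scn1a (r = 0.9977), Smc2 for Scn3a (r = 0.9974) and Kif7 for Scn8a (r = 0.9971). Values of r this high were found for each of the 8, over only 6 libraries, and they describe likeness in these libraries only. Smc2, a condensin subunit of dividing cells, was at 17.7, 27.3 and 26.65 FPKM in KO and 18.4, 28.28 and 38.23 FPKM in WT, and Sec63, part of the translocation machinery of the endoplasmic reticulum, at 14.26, 15.2 and 13.88 FPKM in KO and 17.7, 16.98 and 18.92 FPKM in WT.

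The wider channel families gave no called gene either. Of 117 listed channel, accessory and sodium pump genes, which include the 8, all were quantified, 52 reached the testing minimum, and 0 passed limma's adjusted threshold (1 had an unadjusted p under 0.05, Kcnd2), against 0.00831% of all genes. The direction was lower in KO for 36 and higher for 16, with a median of -0.0774 log2 units against -0.00544 over all genes, and the split was 31 and 21 without WT replicate 1 (median -0.0197). KO lay below WT without overlap for 4 (3.03% of all genes did) and above for 0. Besides Kcnd2 and Kcnip3 these were Kcna2, a delayed rectifier at 4.508, 5.091 and 5.011 FPKM in KO and 5.147, 5.092 and 5.898 FPKM in WT, and Kcnq3, an M-current subunit at 1.208, 1.101 and 0.9895 FPKM in KO and 1.76, 1.25 and 1.432 FPKM in WT.

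**Figure D5:**
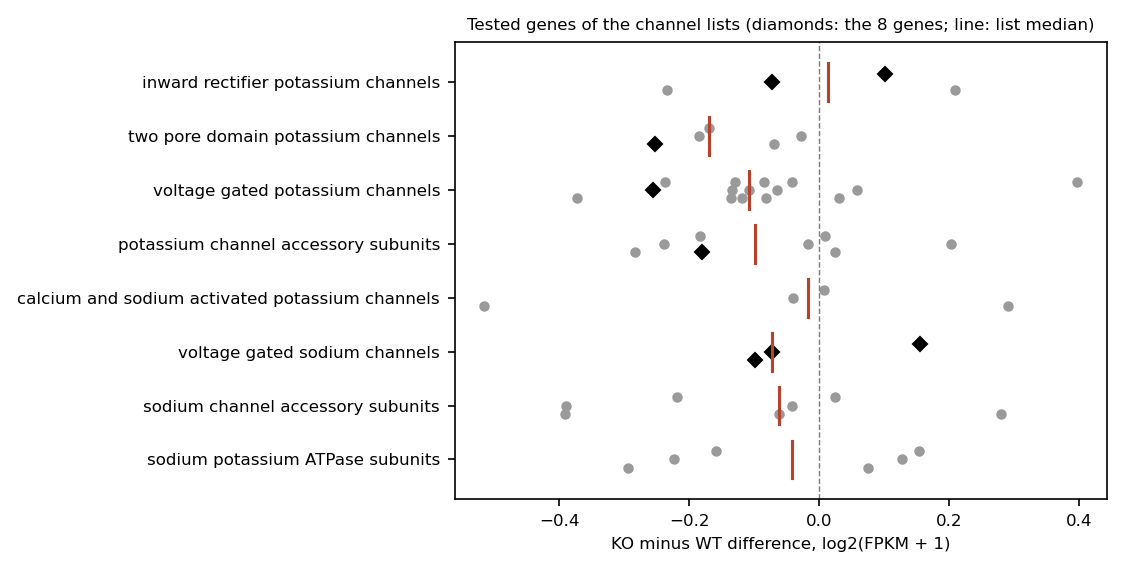
KO minus WT difference in log2(FPKM + 1) for each tested gene of 8 channel and pump lists; diamonds are the 8 genes described here, circles other genes and red lines list medians. All 5 tested K2P genes lie below 0 with all 6 libraries (2 of 5 without WT replicate 1), and the other lists fall on both sides, with medians between -0.108 and 0.0138.

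Among inward rectifiers, 4 of 15 were tested (2 higher and 2 lower in KO), and 5 were listed at 0 in all libraries. After Kcnj10 and Kcnj16 came Kcnj8, a subunit of ATP-sensitive channels, at 4.115, 2.864 and 1.482 FPKM in KO and 2.658, 2.279 and 1.652 FPKM in WT, and Kcnj4 at a mean of 1.039 FPKM over all libraries. Kcnj8 is also among the endothelial and mural markers summed above, and the part of such cells in its level was not tested. Among K2P genes, 5 of 14 were tested and all 5 were lower in KO, none past the threshold, with a median of -0.17 log2 units. This direction rested on WT replicate 1, without which 3 were higher and 2 lower in KO (median 0.00158). Kcnk1 led this family in level, ahead of Kcnk2 (TREK-1) at 6.821 ± 0.82 FPKM in KO and 6.957 ± 0.51 in WT, Kcnk5 at 2.088 ± 0.132 in KO and 2.573 ± 0.867 in WT, and Kcnk10 at 2.223 ± 0.0916 in KO and 2.388 ± 0.301 in WT (SD over 3 libraries each).

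Among voltage-gated potassium channels, 15 of 40 were tested, 3 higher and 12 lower in KO, with a median of -0.108 log2 units. Without WT replicate 1 the split was 7 higher and 8 lower (median -0.00504). Kcna6 was the highest, at 17.03 ± 2.22 FPKM in KO and 18.07 ± 1.81 in WT (SD over 3 libraries each). Kcnd3 (Kv4.3), the other A-type pore gene at this level, was at 12.5, 15.97 and 14.97 FPKM in KO and 13.47, 15.38 and 5.757 FPKM in WT, so that, unlike Kcnd2, only WT replicate 3 stood apart.

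Among accessory subunits of potassium channels, 8 of 13 were tested, 3 higher and 5 lower in KO, with a median of -0.0989 log2 units, or 4 and 4 without WT replicate 1 (median -0.00572). Dpp6, which speeds Kv4 channels, was at 11.67, 16.43 and 15.64 FPKM in KO and 15.96, 17.11 and 16.52 FPKM in WT, overlapping through KO replicate 2. Kcnip1, a relative of Kcnip3, was at 13.97, 10.35 and 9.962 FPKM in KO and 20.81, 10.31 and 6.822 FPKM in WT, and Kcnab2 was at 5.788 ± 0.608 FPKM in KO and 7.547 ± 2.98 in WT (SD over 3 libraries each). Kcnip3 was the highest of these genes and lay above the others in every library.

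Calcium- and sodium-activated potassium channel genes had 4 of 10 tested, 2 in each direction, led by Kcnma1 at 3.287 ± 0.737 FPKM in KO and 3.3 ± 1.04 in WT (SD over 3 libraries each). Kcnmb4, a subunit of the Kcnma1 channel, was at 0.7219, 1.901 and 2.082 FPKM in KO and 0, 3.754 and 8.453 FPKM in WT, and Kcnn3 averaged 1.485 FPKM over all libraries. Only Scn1a, Scn3a and Scn8a of the 10 sodium channel pore genes were tested. Of 8 sodium channel accessory genes 7 were tested, 2 higher and 5 lower in KO, or 3 and 4 without WT replicate 1. Fgf13 was at 6.275, 4.893 and 5.171 FPKM in KO and 13.2, 5.372 and 5.598 FPKM in WT, with WT replicate 1 apart. Fgf11 was at 6.28 ± 0.497 FPKM in KO and 6.16 ± 0.558 in WT, and Scn3b, a beta subunit, at 4.348 ± 1.71 in KO and 4.806 ± 2.62 in WT (SD over 3 libraries each).

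The sodium pump, which restores the gradients that these channels use, was expressed far above them, and 6 of its 7 listed subunit genes were tested, 3 in each direction. Atp1b2, a glial beta subunit, was at 83.71, 127.2 and 120.9 FPKM in KO and 73.33, 138.8 and 107.9 FPKM in WT, low in both replicate 1 libraries as Kcnj16 was. Atp1b3 was at 60.4 ± 3.74 FPKM in KO and 67.66 ± 6.44 in WT (SD over 3 libraries each).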

How the data were processed

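The submitters' processing notes name Cufflinks 2.2.1, Cuffdiff 2.2.1, TopHat2 2.1.1 and FastQC, and the mm10 build. Each library was deposited as its own set of assembled transcripts, for which the authors gave exons and an FPKM. Read counts and strandedness are not given in the sources used here, so depth is only relative, from coverage per FPKM.

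Transcripts were matched by position to GENCODE M21 basic. Gene levels used transcripts of 300 nt or more and genes with at least 200 unshared exonic bases, a choice made after seeing that genes lay in pieces; junctions used transcripts of any length. Genes averaging at least 1 FPKM were tested with limma 3.58.1 in R 4.3.3 on log2(FPKM + 1), which understates changes of low genes (trended empirical Bayes, two-sided, genotype only, Benjamini-Hochberg adjusted p under 0.05). The code was tested on simulated data.

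Deviations from group means correlated between same-numbered libraries (r across genes = 0.37, 0.2 and 0.295, other combinations -0.279 to 0.0231). The sample titles' replicate numbers were therefore taken to pair samples, a pairing read from these same data. Same-numbered differences and the replicate block, an alternative setting, used the pairing, and the main fit left it out. In the block the SE was 0.08656 for Kcnj16, 0.109 for Scn8a and 0.1821 for Kcnj10. In the main fit it was 0.3361, 0.2634 and 0.1894. Named genes were the 8, the 3 other genes of highest mean per channel list, the nearest pattern of each, Gdpd2 and the 2 highest genes of a marker list; Kcna2, Kcnq3, Scn2a, Scn10a, Scn11a, Aqp4, P2ry12 and Tek were named after their values were seen. A few items that the rule takes are not reported here. The genes and lists were chosen with earlier results of these data known. Alternatives covered pseudocounts, filters, scaling, the block, gene values, weights and left-out libraries.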

Additional observations from a re-analysis of the deposited data

How the results depend on the processing

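The number of channel genes past the threshold was 0 under all 19 alternative settings, both among the 8 and in the wider lists. Of 146 alternative values of the 8 differences, 134 kept their direction, including all values of Kcnd2 (-0.285 to -0.2013), Kcnip3 (-0.487 to -0.1212) and Kcnk1 (-0.434 to -0.01222), and 12 were reversed, each with a limma adjusted p of 0.9697 or more. Kcnj16 was at -0.04532 over assembled bases only and -0.4887 with FPKM summed over transcripts, and at -0.02936, -0.04805 and -0.1739 without KO replicate 2, KO replicate 3 and WT replicate 1. Scn8a was at -0.1234 and -0.6429 under the same 2 gene values, -0.03089 with no length minimum and -0.03723 without WT replicate 1. Scn1a was at 0.02394 without KO replicate 1, Kcnj10 at 0.09081 without WT replicate 2 and Scn3a at 0.003333 without WT replicate 3. Summing transcripts moved the median of all genes to -0.246. The cause of these changes was not tested. Over all genes, 1 was called, against 0 with pseudocounts of 0.1 and 5, a mean of 3 FPKM, the replicate block and summed FPKM (with 155 to 511 genes at an unadjusted limma p under 0.05), 2 over assembled bases only, 27 without both replicate 1 libraries, and 1 to 17 with 1 library left out (17 without KO replicate 1). Leaving out 1 library gave ranges of -0.2204 to 0.09081 for Kcnj10, -0.1739 to 0.3797 for Kcnj16, -0.1922 to 0.02394 for Scn1a, -0.2204 to 0.003333 for Scn3a and -0.03723 to 0.3641 for Scn8a. The replicate block changed no call of the 8 (limma adjusted p = 0.8088 for Kcnd2 and Kcnip3). A minimum mean of 3 FPKM left 5 of the 8 tested, and Scn1a fell below 1 FPKM when KO replicate 3, WT replicate 2 or WT replicate 3 was left out. Without counts, no counting interval could be given, and missing junctions of genes at a few FPKM may lie below what assembly detects. Junctions counted only in transcripts of 300 nt or more, a setting added after seeing the data, gave the same numbers of libraries for each exon 5 and exon 18 copy. Over assembled bases only, also added after seeing the data, 1 in place of 4 of the 8 genes had both replicate 1 values below the other 4, and 1 in both cases had them above.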
